A study of Mus musculus with 20 samples.

Results

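The genes of the mouse major histocompatibility complex (MHC, H2 in the mouse) and of antigen processing were examined in activated CD8+ T cells. The members were every gene symbol in the deposited tables that begins with H2- and, besides these, B2m, Tap1, Tap2, Tapbp, Psmb8, Psmb9, Psmb10, Psme1, Psme2, Erap1, Nlrc5, Ciita and Cd74, each represented by its longest transcript. They numbered 57 (44 H2- symbols and 13 others) of 23992 symbols. The cells were CD8+ T cells from spleens of C57BL/6J mice aged 6-8 weeks, activated for 48 hours with antibodies to CD3 and CD28, rested overnight and then kept for 24 hours with or without a cytokine. The cytokine was either mIL-21, the native mouse interleukin-21, or 21h10, a computationally designed protein that mimics IL-21. Experiment 1 used doses of 100 pM and 1 nM of either cytokine, experiment 2 used 10 nM and 100 nM, and each had unstimulated cells of its own. Every group had duplicate libraries (n = 2), which makes 20 libraries in 5 groups per experiment. All groups shared the activation with antibodies, the unstimulated cells included, so that these were activated cells rested without cytokine and not resting T cells. The labels give no mouse or culture for a library, so that p-values measure the spread between libraries, which may be technical. Dose range and experiment changed together and cannot be told apart.

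Class I molecules display peptides from the cytosol to CD8+ T cells on nearly every nucleated cell. The proteasome cuts the peptides, the TAP transporter moves them into the endoplasmic reticulum, Erap1 trims them, and tapasin helps to load them onto a heavy chain paired with beta-2-microglobulin. Class II molecules display peptides from endosomes to CD4+ T cells and are made mainly by B cells, dendritic cells and macrophages. Their alpha and beta chains travel with the invariant chain Cd74, and H2-DM exchanges its remnant for peptide while H2-DO holds H2-DM back. Mouse T cells are not counted among the usual class II-positive cells, although activated human T cells carry class II. The transactivators Nlrc5 (class I) and Ciita (class II) bind no DNA themselves and act through factors that sit on a shared promoter module, which ends in a Y box bound by NF-Y.

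Promoter stretches of 130 bases are shown for class I genes that rose in experiment 1 and for class II genes that moved in different directions, with the Y box (ATTGG, or CCAAT where it lies on the other strand) in capitals. The sequences are those of RefSeq on GRCm38.p6, written 5′ to 3′ on the strand of the gene. The class I stretches lie at chr17:34000334-34000463 on the minus strand (H2-K1), chr17:35262964-35263093 on the plus strand (H2-D1) and chr2:122147557-122147686 on the plus strand (B2m). The class II stretches lie at chr17:34287824-34287953 on the minus strand (H2-Aa) and, on the plus strand, at chr17:34305737-34305866 (H2-Eb1), chr17:34092249-34092378 (H2-Oa) and chr17:34238775-34238904 (H2-Ob).
H2-K1: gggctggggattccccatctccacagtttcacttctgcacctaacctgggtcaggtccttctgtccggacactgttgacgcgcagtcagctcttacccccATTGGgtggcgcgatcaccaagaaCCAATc
H2-D1: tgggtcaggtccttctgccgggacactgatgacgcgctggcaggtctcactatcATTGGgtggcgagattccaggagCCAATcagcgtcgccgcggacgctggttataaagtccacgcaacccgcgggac
B2m: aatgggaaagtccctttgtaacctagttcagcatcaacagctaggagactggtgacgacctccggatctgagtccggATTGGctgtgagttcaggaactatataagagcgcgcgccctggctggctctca
H2-Aa: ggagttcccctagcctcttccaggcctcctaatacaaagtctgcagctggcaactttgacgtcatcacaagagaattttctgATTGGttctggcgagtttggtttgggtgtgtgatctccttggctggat
H2-Eb1: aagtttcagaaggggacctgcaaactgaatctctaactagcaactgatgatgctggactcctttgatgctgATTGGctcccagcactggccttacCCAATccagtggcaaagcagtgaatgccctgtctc
H2-Oa: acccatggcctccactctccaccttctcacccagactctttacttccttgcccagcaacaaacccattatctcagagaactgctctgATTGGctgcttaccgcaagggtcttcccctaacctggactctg
H2-Ob: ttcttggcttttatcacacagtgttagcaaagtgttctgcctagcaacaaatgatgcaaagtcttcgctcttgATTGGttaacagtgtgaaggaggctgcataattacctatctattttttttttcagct

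A Y box was present, on either strand, in 32 of the 41 members with a promoter entry (78%), against 33.8% of the 32851 promoters of the same length, in each case the 250 bases before the transcription start. A member with more than 1 promoter entry counted if any of them held the motif, whereas the share over all promoters counts each entry by itself. The X2 box, sought only in the spelling TGCGTCA and not in its variants, was found in 0 of the 41 (1.75% of all promoters). The STAT motif TTCNNNGAA was found in 4 of them (7.02% of all promoters) and the interferon motif GAAANNGAA in 4 (7.13%), with all motifs sought on both strands and overlaps between motifs allowed. In the stretches shown, H2-K1, H2-D1 and H2-Eb1 held 2 Y boxes each and the other 4 held 1 each.

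By role, the members comprised 4 classical class I genes (H2-K1, H2-D1, H2-L and B2m), 9 genes of the Q region, 7 of the T region (H2-Bl included) and 12 of the M region. Peptide loading and transport had 4 members, the immunoproteasome with its activator PA28 had 5, and Nlrc5 stood alone. Class II had 5 classical chain genes, 5 DM and DO genes, and Cd74 with Ciita. The remaining 3 symbols were H2-K2 (a pseudogene), H2-Ke2 (prefoldin subunit 6) and H2-Ke6 (a hydroxysteroid dehydrogenase), which carry the prefix for their place on the chromosome. Enough reads for the test (at least 10 in as many libraries as a group holds, and 15 in all) were present for 46 members in experiment 1 and 44 in experiment 2, where Ciita and H2-Eb2 fell out. In both experiments 11 members were too low to test, namely H2-Ea-ps and the M region genes H2-M1, H2-M2, H2-M9, H2-M11 and H2-M10.1 to H2-M10.6. The most reads that any of these 11 had in a library was 11, and 3 of them had 0 reads in every library.

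Several members could not be separated by their reads. H2-Q9 carried 99.99% as many reads as H2-Q7, H2-Q6 99.84% as many as H2-Q8, H2-T9 97.8% as many as H2-T22, and H2-L 67.05% as many as H2-D1, over all 20 libraries. The C57BL/6 haplotype is known to lack H2-L, and the values listed for it are given here as those of its row. H2-Q8, H2-Q9, H2-L and H2-T9 had no position in the GENCODE annotation of the primary assembly. H2-DMb1 and H2-DMb2 were 95.75% identical over 1081 bases, and Psme2 was 99.37% identical to Psme2b over 794. H2-T10 was 97.39% identical to H2-T22 over 1495 bases. H2-Q7 was 96.42% identical to H2-Q5 over 1006 bases, and H2-Q6 95.12% identical to H2-Q7 over 983. Use of strand in counting was not stated, and exons overlapped a gene on the opposite strand for Tap1 and Psmb9 (which share 212 bases), Erap1 (14.8% of its bases, with Cast), H2-Oa (29.5%), H2-T10 (27.3%), Tapbp (23.5%), H2-Q4 (21.0%), Tap2 (15%) and Psmb8 (11.4%). H2-Ke6 lay almost wholly within Gm20427 on the same strand (99.9%). H2-Ab1 and H2-Aa overlapped no other exon.

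Reads on genes came to 36829338 to 94079383 per library in experiment 1 and 27074351 to 43303080 in experiment 2, of which the members took 0.842% to 1.31% and 0.875% to 1.05%. The 6 CD8+ T cell markers (Cd8a, Cd8b1, Cd3e, Cd3d, Cd3g and Lck) summed to 2073 to 3425 CPM (reads scaled to library size, with TMM factors) in every library. The 3 CD4+ T cell markers summed to 3.07 to 5.45 CPM and the 3 NK cell markers to 0.483 to 1.95 CPM. With libraries scaled to mapped reads instead of TMM, the median log2 fold change of all genes in experiment 2 moved to between -0.32 and -0.19 against unstimulated cells, so that changes in that experiment are relative to the bulk of genes.

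Relative to unstimulated cells, most class I genes, Tap1, H2-Ab1 and most DM and DO genes rose in experiment 1, while Cd74, Ciita, Erap1 and PA28 fell. In experiment 2 the same comparison gave almost no rises and many falls, the largest among the class II genes. A gene is called here when its adjusted p in edgeR's quasi-likelihood test was under 0.05, over all genes tested. The 46 members tested in experiment 1 split into 36 higher and 7 lower with mIL-21 at 100 pM, where 77.7% of all genes tested passed (38.3% higher, 39.4% lower). With 21h10 at 100 pM the counts were 32 higher and 10 lower, where 81.6% of all genes tested passed (40.2% higher, 41.3% lower). For mIL-21 at 1 nM the counts were 32 higher and 10 lower, where 80.1% of all genes tested passed (39.9% higher, 40.3% lower), and for 21h10 at 1 nM 30 higher and 13 lower, where 80.3% of all genes tested passed (38.2% higher, 42.1% lower). Calls over all genes were split almost evenly by direction, while most of the members called were higher. Counts and medians of members include rows that share reads (H2-Q7 with H2-Q9, H2-Q8 with H2-Q6, H2-T22 with H2-T9, H2-D1 with H2-L). All of these rows were called higher in each treated group of experiment 1, so that the same reads count more than once on that side. The median log2 fold change of the members was 0.81, 0.62, 0.62 and 0.62 in that order, against -0.04 to 0.00 over all genes tested.

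The 4 values listed for an experiment follow the order mIL-21 at the lower dose, 21h10 at the lower dose, mIL-21 at the higher dose and 21h10 at the higher dose. In experiment 1, 30 of the 46 members were called higher in 4 of 4 groups and 7 lower in 4 of 4 (Cd74, Ciita, Erap1, H2-Ke2, Psmb10, Psme1 and Psme2). H2-Eb1, Nlrc5 and Tap2 were called in both directions, depending on the group. In experiment 2, 0 higher and 22 lower members of 44 were found with mIL-21 at 10 nM, where 46.2% of all genes tested passed (22.5% higher, 23.7% lower). The counts were 1 higher and 27 lower with 21h10 at 10 nM (50.1% of all genes called, 25.2% higher and 24.9% lower), 1 higher and 28 lower with mIL-21 at 100 nM (46.2%, 22.5% higher and 23.7% lower) and 1 higher and 20 lower with 21h10 at 100 nM (50.8%, 25% higher and 25.8% lower). The medians over members were -0.34, -0.43, -0.42 and -0.29. Without TMM scaling the count for 21h10 at 100 nM was 34 (1 higher, 33 lower), and without the first unstimulated library the count for mIL-21 at 100 nM was 16 in place of 29. B2m was the member called higher in this experiment, 16 members were called lower in 4 of 4 groups, and 13 were called in none. Of the rows that share reads, H2-Q6 with H2-Q8 and H2-T22 with H2-T9 are among the 16. H2-Q7 with H2-Q9 and H2-D1 with H2-L are among the 13.

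**Figure D1:**
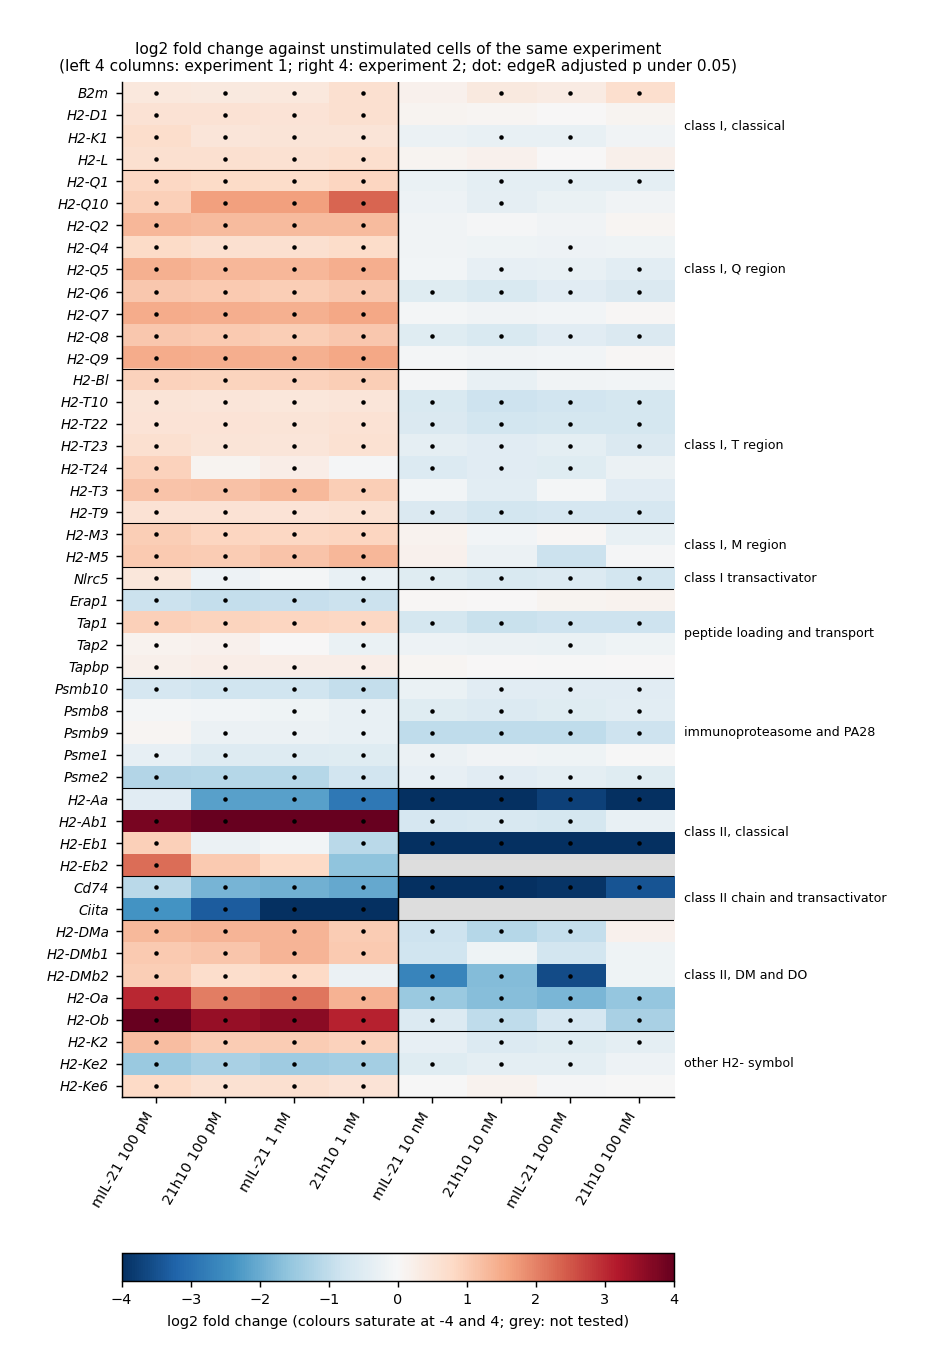
Log2 fold change against unstimulated cells of the same experiment (colour scale) for the members tested (rows, grouped by role) in the 4 treated groups of experiment 1 and of experiment 2 (columns), with a dot for each edgeR call and a colour scale that saturates at its ends. Experiment 1 shows higher values for 30 members in 4 of 4 groups, and experiment 2 shows lower values for 16 members in 4 of 4 groups.

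Among class I genes, the heavy chains H2-K1 and H2-D1 and their light chain B2m stood, per length, among the 4 highest members in unstimulated cells of experiment 1, together with H2-L (517 ± 6.54 RPKM), whose values come from reads shared with H2-D1. In unstimulated cells of experiment 1, B2m stood at 1619 ± 2.56 RPKM (reads scaled to transcript length and library size, mean ± SD, n = 2), H2-K1 at 572 ± 9.45 and H2-D1 at 486 ± 8.16 RPKM. In those of experiment 2 the values were 2044 ± 310.5, 618 ± 124 and 491 ± 94.6 RPKM, where H2-K1 and H2-D1 did not differ beyond the spread of the duplicates. All 4 classical genes were called higher in every treated group of experiment 1.

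H2-K1, the heavy chain of H2-K, stood in experiment 1 at 1115 and 1112 CPM without cytokine, 1855 and 1777 (mIL-21) against 1563 and 1541 (21h10) at 100 pM, and 1544 and 1608 against 1691 and 1492 at 1 nM. Its treated libraries all lay above the unstimulated ones, with log2 fold changes of 0.71, 0.48, 0.50 and 0.52 (SE 0.055, edgeR adjusted p 2.1e-09 to 3.2e-07). In experiment 2 it stood at 1363 and 1081 CPM without cytokine, 1003 and 1066 (mIL-21) against 1018 and 959 (21h10) at 10 nM, and 1016 and 963 against 1156 and 1057 at 100 nM. All treated libraries but 1 lay below the unstimulated pair, with fold changes of -0.24, -0.31, -0.30 and -0.14 (SE 0.099, edgeR adjusted p 0.017 to 0.24), and H2-K1 fell in the 21h10 10 nM and mIL-21 100 nM groups. Both calls were lost without the first unstimulated library, without the second library of the treated group concerned, and with the compared groups fitted alone.

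H2-D1, the heavy chain of H2-D, had in experiment 1 999.6 and 997 CPM without cytokine, 1536 and 1464 (mIL-21) against 1521 and 1465 (21h10) at 100 pM, and 1390.3 and 1529 against 1594 and 1506 at 1 nM. It rose in all 4 groups, by log2 fold changes of 0.59, 0.58, 0.55 and 0.63 (SE 0.053, edgeR adjusted p 4.6e-09 to 3.5e-08). Experiment 2 gave 1137 and 911 CPM without cytokine, 1087 and 1108 (mIL-21) against 1095 and 1072 (21h10) at 10 nM, and 1085 and 963 against 1174 and 1059 at 100 nM, where treated and unstimulated libraries overlapped and no group was called (log2 fold changes 0.10, 0.08, 0.00 and 0.12, SE 0.10, edgeR adjusted p 0.31 to 1.00). The row of H2-L, which shares reads with H2-D1, followed it with 653 and 647 CPM without cytokine, 1033 and 988 (mIL-21) against 1037 and 996 (21h10) at 100 pM, and 932 and 1034 against 1059 and 1017 at 1 nM in experiment 1, and with 739 and 604 CPM without cytokine, 726 and 714 (mIL-21) against 746 and 756 (21h10) at 10 nM, and 726 and 635 against 813 and 728 at 100 nM in experiment 2. Its log2 fold changes were 0.64, 0.64, 0.60 and 0.68 (SE 0.053, edgeR adjusted p 1.9e-09 to 1.1e-08) and then 0.10, 0.16, 0.02 and 0.20 (SE 0.099, edgeR adjusted p 0.11 to 0.89).

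B2m, the light chain common to all class I molecules, had 1666 and 1619 CPM without cytokine, 2119 and 2261 (mIL-21) against 2178 and 2161 (21h10) at 100 pM, and 2184 and 2235 against 2521 and 2643 at 1 nM in experiment 1. It rose in each group, by log2 fold changes of 0.42, 0.40, 0.43 and 0.65 (SE 0.048, edgeR adjusted p 8.3e-10 to 5.6e-07), most with 21h10 at 1 nM. Experiment 2 gave it 1839 and 2406 CPM without cytokine, 2560.3 and 2258 (mIL-21) against 2789.9 and 2788 (21h10) at 10 nM, and 2540.1 and 2808 against 3318 and 3388 at 100 nM. The increases were called for 3 of the 4 groups there, with log2 fold changes of 0.18, 0.39, 0.33 and 0.66 (SE 0.11, edgeR adjusted p 1.2e-04 to 0.18), and mIL-21 at 10 nM, whose libraries overlapped the unstimulated ones, was the exception. Without TMM, or without the first unstimulated library, the calls for 21h10 at 10 nM and for mIL-21 at 100 nM were lost.

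**Figure D2:**
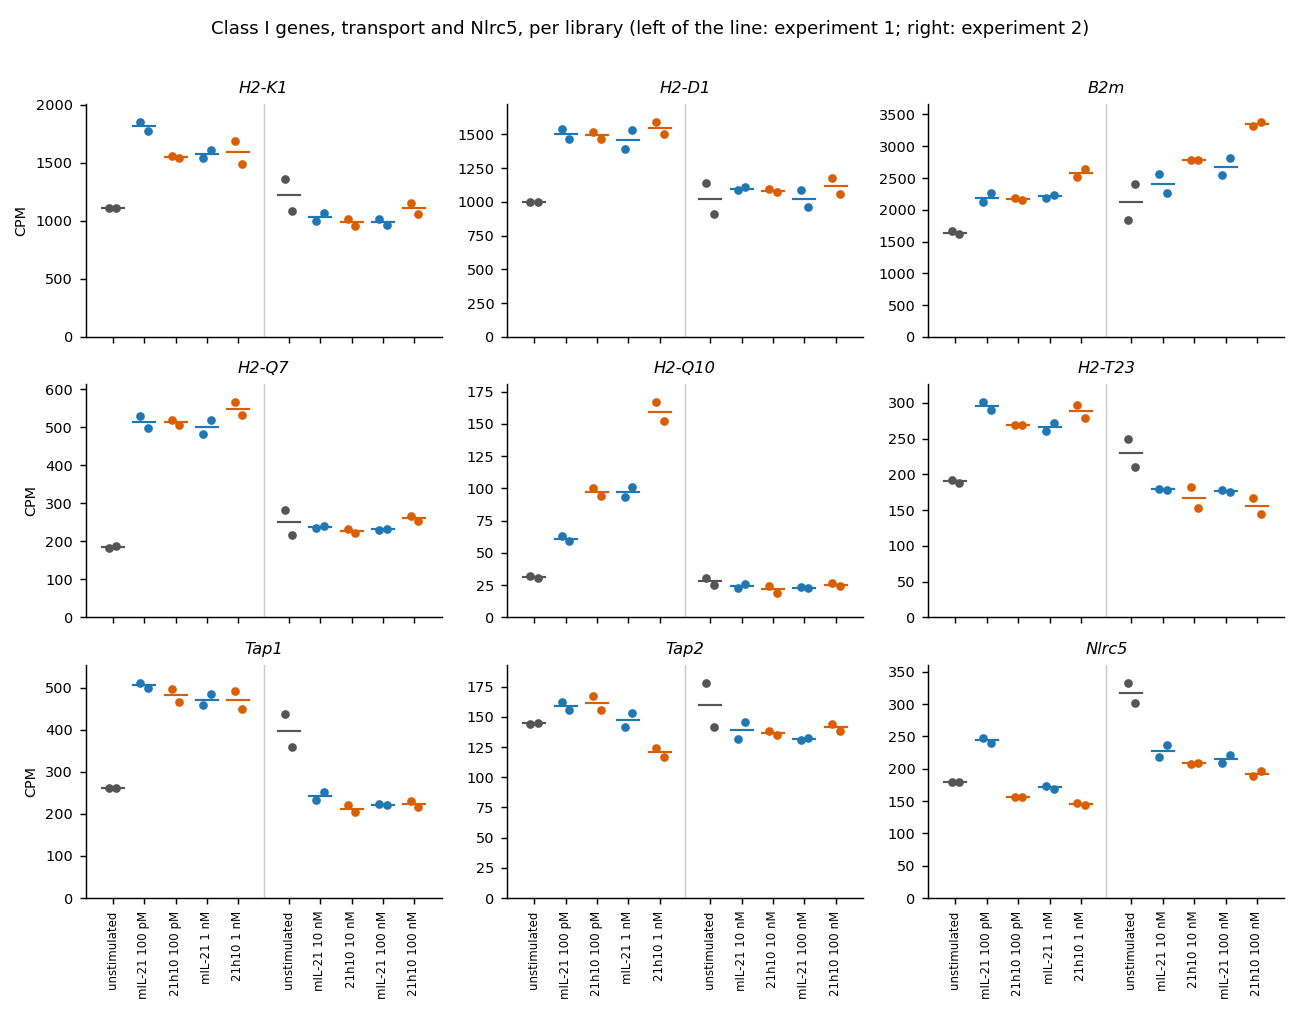
CPM, on a linear axis from 0, of class I and loading genes in each of the 20 libraries (points, grey unstimulated, blue mIL-21, orange 21h10), by group and experiment, with bars at the mean of the duplicates. In experiment 1 the treated libraries of H2-K1, H2-D1, B2m and Tap1 lie above both unstimulated libraries, while in experiment 2 Tap1 lies below them.

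The Q region encodes non-classical class I molecules, among them Qa-2 (H2-Q7 and H2-Q9) and the secreted H2-Q10, best known from liver. All 9 Q genes rose in each treated group of experiment 1, with medians of 1.08, 1.28, 1.28 and 1.28 on the log2 scale. H2-Q7 went from 183 and 189 CPM to 482 to 566 CPM over the 8 treated libraries, with log2 fold changes of 1.47, 1.46, 1.43 and 1.56 (SE 0.053, edgeR adjusted p 1.3e-14 to 5.7e-14), and H2-Q9 gave nearly the same reads. H2-Q5, annotated as a pseudogene, went from 58.2 and 58.5 to 143.1 to 161 CPM. H2-Q10 was graded by dose, since it stood at 31.8 and 31.0 CPM without cytokine, 63.1 and 59.1 (mIL-21) against 100.1 and 94.3 (21h10) at 100 pM, and 93.5 and 101 against 167 and 152 at 1 nM. Its values did not overlap between 100 pM and 1 nM of either cytokine, and the log2 fold changes were 0.96, 1.63, 1.63 and 2.34 (SE 0.060 to 0.061, edgeR adjusted p 4.0e-16 to 1.3e-10). H2-Q6 (and H2-Q8, with which it shares reads) went from 72.5 and 69.8 to 137.2 to 155 CPM, H2-Q2 from 9.50 and 9.85 to 22.6 to 24.6, H2-Q4 from 165 and 164 to 248 to 285, and H2-Q1 from 30.8 and 32.3 to 52.6 to 57.4.

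In experiment 2 no Q gene was called higher. H2-Q6 and H2-Q8 fell in all 4 groups, H2-Q6 from 102 and 93.9 CPM to 63.1 to 74.8 CPM, by log2 fold changes of -0.47, -0.61, -0.46 and -0.57 (SE 0.087, edgeR adjusted p 3.0e-05 to 4.7e-04). H2-Q1 and H2-Q5 fell in 3 groups each and H2-Q4 and H2-Q10 in 1 each. H2-Q7 stood at 283 and 218 CPM without cytokine and 221 to 268 with it, and H2-Q2 at 13.04 and 12.7 and 10.7 to 14.0. Neither passed the test in any group, nor did H2-Q9.

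Genes of the T region behaved alike in direction. H2-T23, the heavy chain of Qa-1, which the inhibitory receptor NKG2A reads, went in experiment 1 from 192.6 and 189 to 260.2 to 301 CPM (log2 fold changes 0.63, 0.50, 0.48 and 0.60, SE 0.047, edgeR adjusted p 1.1e-09 to 3.9e-08) and in experiment 2 from 249.8 and 210.5 to 144 to 182 CPM (-0.36, -0.46, -0.38 and -0.57, SE 0.10, edgeR adjusted p 3.1e-04 to 0.0085). It rose in 4 of 4 groups of the first and fell in 4 of 4 of the second. H2-T22 and H2-T10, ligands of some gamma-delta T cell receptors, did the same, H2-T22 with log2 fold changes of 0.54, 0.56, 0.51 and 0.57 (SE 0.051, edgeR adjusted p 1.2e-08 to 5.3e-08) and then -0.58, -0.74, -0.70 and -0.69 (SE 0.092, edgeR adjusted p 7.1e-06 to 8.4e-05). Here H2-T10 is annotated as a pseudogene. The pair are near-identical copies, so that the split of reads between them is uncertain. H2-T10 went from 79.1 in both libraries to 104 to 113 CPM in experiment 1 and from 85.1 and 69.8 to 40.3 to 51.2 CPM in experiment 2, and H2-T9 shared the reads of H2-T22. H2-T3, the thymus leukaemia antigen, rose in experiment 1 from 2.35 and 2.29 to 4.35 to 6.25 CPM, and H2-Bl from 12.4 and 12.1 to 21.8 to 25.3. Neither was called in experiment 2, where H2-T3 had 3.15 and 3.55 and 2.39 to 3.51 CPM and H2-Bl 13.2 and 11.9 and 8.80 to 12.2 CPM.

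H2-T24 stood apart within this region. In experiment 1 it had 19.7 and 19.6 CPM without cytokine, 37.4 and 36.9 (mIL-21) against 21.8 and 20.3 (21h10) at 100 pM, and 22.01 and 25.1 against 19.7 and 18.6 at 1 nM. The pair with mIL-21 at 100 pM lay far above all other groups, and the log2 fold changes were 0.92, 0.10, 0.26 and -0.04 (SE 0.070 to 0.073, edgeR adjusted p 1.4e-09 to 0.61), so that it rose with mIL-21 at either dose but was not called with 21h10. In experiment 2 it was called lower in 3 of 4 groups, from 29.8 and 30.2 to 20.3 to 29.1 CPM. Of the 12 M region genes 2 could be tested. H2-M3, which presents N-formylated peptides, rose in experiment 1 from 15.02 and 15.1 to 25.3 to 29.9 CPM, and H2-M5 from 0.497 and 0.454 to 0.671 to 1.34. In experiment 2 neither was called, at 22.8 and 19.4 and 17.03 to 23.5 CPM for H2-M3 and 0.890 and 0.627 and 0.262 to 1.004 for H2-M5.

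Nlrc5, the transactivator of class I genes, did not follow the heavy chains. In experiment 1 it had 179.8 and 179.6 CPM without cytokine, 248 and 240.3 (mIL-21) against 156 in both (21h10) at 100 pM, and 174 and 169 against 148 and 144 at 1 nM. It rose with mIL-21 at 100 pM, fell with 21h10 at both doses and was not called with mIL-21 at 1 nM (log2 fold changes 0.44, -0.20, -0.07 and -0.30, SE 0.043 to 0.044, edgeR adjusted p 4.4e-08 to 0.15). Its values in experiment 2 were 333 and 301 CPM without cytokine, 218 and 237 (mIL-21) against 207.5 and 209.7 (21h10) at 10 nM, and 208.6 and 221 against 189 and 196 at 100 nM, and every treated group fell (-0.48, -0.60, -0.56 and -0.72, SE 0.081, edgeR adjusted p 3.0e-06 to 1.6e-04). Its unstimulated level was higher in experiment 2, at 37.9 ± 4.13 RPKM against 21.9 ± 0.396 in experiment 1.

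The 2 chains of the peptide transporter differed. Tap1 stood in experiment 1 at 262 CPM in both libraries without cytokine, 512 and 498 (mIL-21) against 497 and 466 (21h10) at 100 pM, and 458 and 485 against 491 and 448 at 1 nM. It rose by log2 fold changes of 0.94, 0.88, 0.85 and 0.84 (SE 0.053, edgeR adjusted p 2.3e-11 to 9.1e-11). Tap2 had 144 and 145 CPM without cytokine, 162 and 156 (mIL-21) against 167 and 156 (21h10) at 100 pM, and 141.2 and 154 against 124 and 117 at 1 nM in the same libraries. It rose with either cytokine at 100 pM, was not called with mIL-21 at 1 nM and fell with 21h10 at 1 nM (0.14, 0.16, 0.03 and -0.26, SE 0.053 to 0.054, edgeR adjusted p 2.2e-04 to 0.65), where the libraries lay below all others. Both calls of Tap2 at 100 pM were lost when either unstimulated library was left out. Experiment 2 gave 437 and 359 CPM without cytokine, 234 and 251 (mIL-21) against 220.2 and 205.1 (21h10) at 10 nM, and 223 and 220.2 against 231 and 217 at 100 nM for Tap1, which fell in every group (-0.71, -0.90, -0.84 and -0.83, SE 0.093, edgeR adjusted p 1.0e-06 to 1.2e-05). Tap2 there had 61.0 and 46.0 RPKM without cytokine, 37.8 and 43.9 (mIL-21) against 38.7 and 36.7 (21h10) at 10 nM, and 37.9 and 37.2 against 39.9 and 36.6 at 100 nM and was called lower in 1 group, mIL-21 at 100 nM (-0.21, -0.23, -0.28 and -0.18, SE 0.098, edgeR adjusted p 0.027 to 0.14). The Tap1 to Tap2 ratio of RPKM was 1.53 ± 0.00415 (mean ± SD, n = 2) without cytokine and 2.51 to 3.28 with it in experiment 1, but 2.10 ± 0.0466 and 1.31 to 1.48 in experiment 2.

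Tapbp (tapasin), which bridges TAP and the heavy chain, changed little. It had 269 and 264 CPM without cytokine, 305 in both (mIL-21) against 322 and 311 (21h10) at 100 pM, and 307 and 336 against 340.0 and 296 at 1 nM in experiment 1, with log2 fold changes of 0.20, 0.25, 0.27 and 0.25 (SE 0.059, edgeR adjusted p 4.4e-04 to 0.006), each of them called higher. The libraries of experiment 2 held it at 368 and 312 CPM without cytokine, 355 and 371 (mIL-21) against 345 and 337 (21h10) at 10 nM, and 340.2 and 330.1 against 337 and 344 at 100 nM. The groups overlapped and none was called (0.09, 0.00, -0.02 and 0.00, SE 0.084, edgeR adjusted p 0.39 to 0.99). Erap1, the trimming aminopeptidase, moved against the heavy chains in experiment 1, with 229 and 228 CPM without cytokine, 127 in both (mIL-21) against 119 and 117 (21h10) at 100 pM, and 128 and 112 against 118 and 133.8 at 1 nM. All treated libraries lay well below the unstimulated pair, and Erap1 fell by log2 fold changes of -0.85, -0.95, -0.93 and -0.86 (SE 0.061, edgeR adjusted p 1.0e-10 to 7.2e-10). For experiment 2 the values were 214 and 233 CPM without cytokine, 239 and 225 (mIL-21) against 233 and 225 (21h10) at 10 nM, and 247 and 232 against 243 and 254 at 100 nM, with overlap and no call (0.05, 0.03, 0.10 and 0.15, SE 0.079, edgeR adjusted p 0.12 to 0.75). Erap1 overlaps Cast on the other strand in 834 bases of its annotated transcript. Reads within that overlap cannot be assigned to either gene, since use of strand was not stated.

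The immunoproteasome subunits Psmb8, Psmb9 and Psmb10 replace the constitutive Psmb5, Psmb6 and Psmb7, and Psme1 with Psme2 form the activator PA28. None of these 5 members was called higher in any treated group of either experiment. Psmb8 had 434 and 426 CPM without cytokine, 409 and 402 (mIL-21) against 407 and 392 (21h10) at 100 pM, and 374 and 396 against 366 and 329 at 1 nM in experiment 1. It fell at 1 nM of either cytokine (-0.08, -0.11, -0.16 and -0.31, SE 0.052, edgeR adjusted p 3.6e-05 to 0.15). In experiment 2 it had 394 and 329 CPM without cytokine, 266 and 247 (mIL-21) against 261 and 232 (21h10) at 10 nM, and 269 and 249 against 271 and 266 at 100 nM. It fell in each group (-0.50, -0.55, -0.48 and -0.43, SE 0.094, edgeR adjusted p 1.7e-04 to 0.0014). Its treated libraries did not overlap the unstimulated pair in experiment 2.

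Psmb9 had 123 and 129 CPM without cytokine, 134.4 and 133 (mIL-21) against 110.4 and 106 (21h10) at 100 pM, and 105 and 112 against 110.4 and 95.02 at 1 nM in experiment 1, where it fell in 3 groups but not with mIL-21 at 100 pM, whose libraries were the highest (0.09, -0.22, -0.22 and -0.30, SE 0.060, edgeR adjusted p 2.2e-04 to 0.19). Its fall in experiment 2 was the largest of the 5, with 146 and 120.2 CPM without cytokine, 67.7 and 64.5 (mIL-21) against 67.2 and 64.0 (21h10) at 10 nM, and 68.9 and 62.0 against 74.0 and 76.96 at 100 nM and log2 fold changes of -1.01, -1.02, -1.03 and -0.82 (SE 0.098 to 0.099, edgeR adjusted p 4.5e-07 to 5.4e-06). Psmb10 had 88.2 and 88.4 CPM without cytokine, 57.6 and 54.5 (mIL-21) against 51.1 and 50.7 (21h10) at 100 pM, and 47.6 and 53.5 against 49.1 and 41.9 at 1 nM in experiment 1, below the unstimulated pair in every group (-0.66, -0.80, -0.80 and -0.96, SE 0.066 to 0.068, edgeR adjusted p 4.4e-10 to 7.8e-08). Experiment 2 gave 73.9 and 53.1 CPM without cytokine, 51.0 and 54.8 (mIL-21) against 50.8 and 41.8 (21h10) at 10 nM, and 46.7 in both against 48.5 and 44.4 at 100 nM, with a wide unstimulated pair and calls in 3 groups, all but mIL-21 at 10 nM (-0.26, -0.46, -0.44 and -0.45, SE 0.13, edgeR adjusted p 0.009 to 0.11).

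Psme1, the alpha chain of PA28, had 366 and 365 CPM without cytokine, 291 and 293 (mIL-21) against 255 and 257 (21h10) at 100 pM, and 242 and 263 against 258 and 259 at 1 nM in experiment 1. It fell in all 4 groups (-0.32, -0.51, -0.53 and -0.50, SE 0.046, edgeR adjusted p 7.8e-09 to 4.8e-06). Experiment 2 gave it 357 and 366 CPM without cytokine, 318 and 299 (mIL-21) against 339 and 316 (21h10) at 10 nM, and 326 and 317 against 364 and 349.5 at 100 nM. It was called lower in 1 group, mIL-21 at 10 nM (-0.23, -0.14, -0.17 and -0.02, SE 0.076, edgeR adjusted p 0.022 to 0.84). Psme2, the beta chain, fell further than Psme1 in experiment 1, with 281 CPM in both libraries without cytokine, 123 and 125 (mIL-21) against 129 and 126 (21h10) at 100 pM, and 126 and 128 against 163 and 168 at 1 nM and log2 fold changes of -1.18, -1.14, -1.15 and -0.76 (SE 0.043 to 0.044, edgeR adjusted p 6.9e-14 to 1.9e-11). The 21h10 1 nM pair lay between the unstimulated pair and the other treated pairs. In experiment 2 Psme2 had 210.4 and 166 CPM without cytokine, 152 and 148 (mIL-21) against 144 and 133.9 (21h10) at 10 nM, and 167 and 123 against 142.6 and 129.6 at 100 nM. It was called lower in each group (-0.33, -0.44, -0.38 and -0.47, SE 0.13, edgeR adjusted p 0.006 to 0.044), although the libraries of the mIL-21 100 nM group were far apart and overlapped the unstimulated ones. All 4 calls of Psme2 were lost without the first unstimulated library, and that for mIL-21 at 10 nM was lost in 8 alternative fits. Psme2 has the near-identical copy Psme2b, between which reads may be split.

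Within a library, the level per length of an inducible subunit could be set against the subunit it replaces. The Psmb8 to Psmb5 ratio of RPKM was 2.51 ± 0.0999 (mean ± SD, n = 2) in unstimulated cells of experiment 1 and 4.50 to 5.67 as group means with cytokine. Psmb9 to Psmb6 was 1.18 ± 0.0303 and 1.96 to 2.73, and Psmb10 to Psmb7 0.327 ± 0.00533 and 0.33 to 0.463, with 21h10 at 1 nM at the lower end. The first and second of these ratios were thus higher in every treated library than in either unstimulated one, while no inducible subunit itself rose. Psmb5 stood at 118 ± 5.43 RPKM without cytokine and 50.4 to 52.2 with it. In experiment 2, Psmb8 to Psmb5 was 4.62 ± 0.854 without and 4.01 to 5.21 with cytokine, Psmb9 to Psmb6 2.50 ± 0.186 and 1.58 to 1.82, and Psmb10 to Psmb7 0.404 ± 0.0698 and 0.411 to 0.514. There, treated libraries overlapped the unstimulated pair for Psmb8 to Psmb5 and for Psmb10 to Psmb7 and lay below it for Psmb9 to Psmb6.

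**Figure D3:**
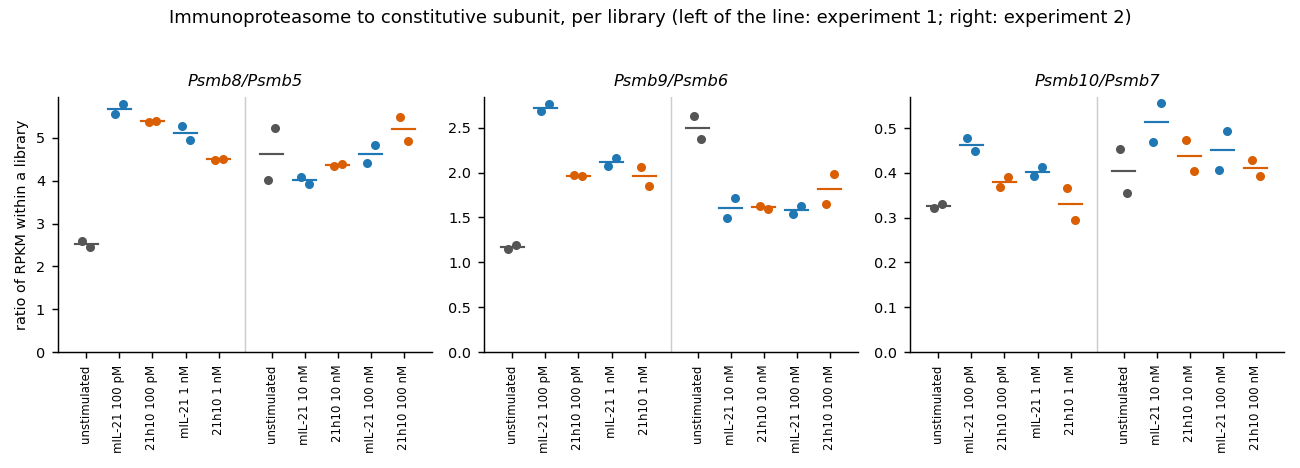
Ratio of RPKM within each library (points) of Psmb8 to Psmb5, Psmb9 to Psmb6 and Psmb10 to Psmb7, by group (grey unstimulated, blue mIL-21, orange 21h10) and experiment, with bars at the mean of the duplicates. In experiment 1 the treated group means for Psmb8 to Psmb5 lie between 4.50 and 5.67 against 2.51 in unstimulated cells, and in experiment 2 between 4.01 and 5.21 against 4.62.

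The rest of the proteasome and of class I processing was followed with lists that hold no member. Their counts stand beside 77.7% to 81.6% of all genes tested called in experiment 1 and 46.2% to 50.8% in experiment 2. All 3 constitutive beta subunits and all 11 other core subunits were called lower in each treated group of experiment 1, the core with medians of -1.20 to -1.0 on the log2 scale. The 4 core genes with the largest falls with mIL-21 at 100 pM were Psma3 (-1.35), Psma1 (-1.29), Psma7 (-1.28) and Psmb3 (-1.28). In experiment 2 the core had 3 to 4 genes called lower and 0 to 2 called higher, with medians of -0.15 to -0.08. Of 10 further genes of class I processing, 6 to 8 were called lower in experiment 1 and 1 to 3 higher. They included Psme3, the third PA28 chain (-1.78 to -1.50), and the chaperones Calr (-1.28 to -0.72) and Pdia3 (-1.13 to -0.94). Npepps, an aminopeptidase of the cytosol, was at 0.66, 0.86, 0.86 and 1.30 in experiment 1 and at -0.86, -0.97, -0.84 and -0.92 in experiment 2. In experiment 2, 1 to 2 of the 10 were called lower and 2 to 4 higher, among them Calr (0.27 to 0.70) and Tpp2 (0.52 to 0.66).

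Class II genes divided within experiment 1. H2-Ab1, the beta chain of I-A, rose by 14.0-fold to 21.4-fold, while H2-Aa, the alpha chain of the same molecule, the invariant chain Cd74 and the transactivator Ciita fell. H2-Oa and H2-Ob, the chains of H2-DO, rose, as did most chains of H2-DM. In experiment 2 class II genes were called lower or not at all. Of the 11 class II genes tested in experiment 1 the counts were 8 higher and 2 lower, 6 and 3, 6 and 3, and 5 and 4, with medians of 1.04, 1.06, 0.79 and -0.23. Of the 9 tested in experiment 2, 8, 8, 8 and 5 were lower and 0 higher, with medians of -1.47, -1.71, -1.82 and -1.31. Over all genes tested, 77.7% to 81.6% were called in experiment 1 and 46.2% to 50.8% in experiment 2, where 23.7% to 25.8% were called lower.

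H2-Ab1 had 6.11 and 5.14 CPM without cytokine, 79.9 and 80.0 (mIL-21) against 111 and 109 (21h10) at 100 pM, and 100.1 and 114 against 127 and 117 at 1 nM in experiment 1. The treated pairs lay far above the unstimulated one and did not overlap it, with log2 fold changes of 3.81, 4.27, 4.23 and 4.42 (SE 0.081 to 0.082, edgeR adjusted p 6.4e-18 to 1.2e-16). Per length, its level went from 3.98 ± 0.409 RPKM to 59.8 ± 0.597, 76.8 ± 1.82, 73.8 ± 4.32 and 81.7 ± 6.49 RPKM. Its values in experiment 2 were 21.7 and 16.8 CPM without cytokine, 10.12 and 14.2 (mIL-21) against 13.6 and 10.96 (21h10) at 10 nM, and 10.7 and 12.97 against 17.2 and 14.4 at 100 nM. It was called lower in 3 of 4 groups, with 21h10 at 100 nM overlapping the unstimulated pair (-0.66, -0.65, -0.71 and -0.29, SE 0.18, edgeR adjusted p 0.0047 to 0.2). All 3 calls were lost without the first unstimulated library, and each also without 1 library of its own treated group (the first for mIL-21 at either dose, the second for 21h10 at 10 nM).

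H2-Aa was low throughout. It had 2.08 and 1.78 CPM without cytokine, 1.51 and 1.36 (mIL-21) against 0.556 and 0.356 (21h10) at 100 pM, and 0.537 and 0.337 against 0.252 and 0.277 at 1 nM in experiment 1. It fell in 3 groups with mIL-21 at 100 pM not called (-0.44, -2.16, -2.17 and -2.86, SE 0.21 to 0.30, edgeR adjusted p 8.5e-08 to 0.07). The libraries of experiment 2 held it at 2.17 and 1.96 CPM without cytokine, 0.195 and 0.0232 (mIL-21) against 0.214 and 0.0322 (21h10) at 10 nM, and 0.291 and 0 against 0.0663 and 0 at 100 nM. It fell in every group (-4.27, -4.07, -3.74 and -5.75, SE 0.89 to 1.14, edgeR adjusted p 6.4e-04 to 0.0028). With 21h10 at 100 nM, 2 reads in both libraries against 162 in the unstimulated pair gave a level 59.1-fold lower (95% exact binomial interval 16.1 to 492, for counting error alone). The ratio of H2-Ab1 to H2-Aa in RPKM was 2.61 ± 0.0348 in unstimulated cells of experiment 1 and 50.2 ± 3.68, 227 ± 68.5, 235 ± 95.7 and 415 ± 52.9 with cytokine.

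H2-Eb1, the beta chain of I-E, has no functional alpha chain partner in C57BL/6 mice, whose alpha chain gene is listed as H2-Ea-ps. It had 2.02 and 1.93 CPM without cytokine, 4.06 and 3.56 (mIL-21) against 1.27 and 1.95 (21h10) at 100 pM, and 1.89 and 1.80 against 1.06 and 0.850 at 1 nM in experiment 1. It rose with mIL-21 at 100 pM, fell with 21h10 at 1 nM and was not called in the groups between (0.95, -0.25, -0.10 and -1.07, SE 0.17 to 0.22, edgeR adjusted p 8.0e-05 to 0.63). For experiment 2 the values were 3.06 and 1.72 CPM without cytokine, 0 and 0.0927 (mIL-21) against 0.0712 and 0 (21h10) at 10 nM, and 0.0291 and 0.226 against 0.133 and 0.112 at 100 nM. It fell in each group (-5.48, -5.99, -4.23 and -4.25, SE 0.79 to 0.97, edgeR adjusted p 8.8e-05 to 4.3e-04). With 21h10 at 10 nM the 2 reads left, against 190, made it 71.8-fold lower (95% exact binomial interval 19.6 to 597). H2-Eb2 had 5 and 6 reads without cytokine, 23 and 9 (mIL-21) against 9 and 14 (21h10) at 100 pM, and 7 and 4 against 0 and 2 at 1 nM in experiment 1, too few to read beyond a rise with mIL-21 at 100 pM, for which the log2 fold change was 2.24 ± 0.57 (SE, edgeR adjusted p = 0.0018). That call was lost without the first mIL-21 100 pM library. In experiment 2 it had 11 and 3 reads without cytokine, 0 and 4 (mIL-21) against 0 in both (21h10) at 10 nM, and 2 and 1 against 1 and 2 at 100 nM. It was not tested.

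Cd74, the invariant chain, had 44.9 and 45.6 CPM without cytokine, 21.7 and 21.04 (mIL-21) against 12.4 and 12.7 (21h10) at 100 pM, and 11.8 and 11.9 against 11.3 and 10.7 at 1 nM in experiment 1. It fell in every group, least with mIL-21 at 100 pM (-1.08, -1.85, -1.93 and -2.04, SE 0.062 to 0.067, edgeR adjusted p 8.2e-15 to 2.7e-11). Experiment 2 gave it 17.6 and 13.4 CPM without cytokine, 0.864 and 0.973 (mIL-21) against 0.962 and 0.935 (21h10) at 10 nM, and 0.786 and 1.29 against 1.26 and 1.56 at 100 nM. It fell further (-4.07, -4.03, -3.91 and -3.46, SE 0.25 to 0.26, edgeR adjusted p 2.6e-09 to 1.6e-08). Relative to Cd74, H2-Ab1 was at 0.148 ± 0.0195 in RPKM without cytokine and at 4.44 to 13.2 with it in experiment 1.

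Ciita, the transactivator of class II genes, was near the floor of detection. It had 81 and 38 reads without cytokine, 5 and 8 (mIL-21) against 7 and 4 (21h10) at 100 pM, and 1 in both against 0 and 3 at 1 nM in experiment 1. It fell in each group (-2.40, -3.34, -4.93 and -4.44, SE 0.46 to 0.68, edgeR adjusted p 3.0e-06 to 1.3e-04). With mIL-21 at 1 nM its level was 33.7-fold lower (95% exact binomial interval 9.13 to 282) and with 21h10 at 1 nM 23.2-fold lower (7.75 to 114). Its values in experiment 2 were 37 and 7 reads without cytokine, 2 and 5 (mIL-21) against 2 and 3 (21h10) at 10 nM, and 0 and 1 against 1 and 2 at 100 nM, where the unstimulated duplicates differed and the gene did not pass the filter. Its level there was 36.7-fold lower with mIL-21 at 100 nM on 1 read (6.26 to 1484), 6.65-fold with 21h10 at 10 nM (2.64 to 21.5) and 10.7-fold with 21h10 at 100 nM (3.43 to 53.9). H2-Ab1 rose in experiment 1 in the same libraries in which Ciita was at these levels.

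H2-DMa, the alpha chain of H2-DM, had 18.4 and 19.9 CPM without cytokine, 47.2 and 46.3 (mIL-21) against 51.5 and 47.2 (21h10) at 100 pM, and 46.9 and 51.5 against 40.8 and 37.1 at 1 nM in experiment 1. It rose in all groups (1.29, 1.37, 1.36 and 1.02, SE 0.069 to 0.071, edgeR adjusted p 4.0e-12 to 3.3e-10). The libraries of experiment 2 held it at 31.1 and 21.5 CPM without cytokine, 14.7 and 14.8 (mIL-21) against 11.3 and 12.4 (21h10) at 10 nM, and 13.3 and 13.7 against 30.3 and 28.4 at 100 nM. It fell in 3 groups, while the 21h10 100 nM pair stood within the unstimulated range (-0.83, -1.15, -0.96 and 0.16, SE 0.14 to 0.15, edgeR adjusted p 1.2e-05 to 0.37). H2-DMb1 had 1.46 and 1.54 CPM without cytokine, 2.95 and 3.23 (mIL-21) against 3.41 and 3.10 (21h10) at 100 pM, and 4.04 and 3.596 against 3.05 and 3.16 at 1 nM in experiment 1, rising in each group (1.04, 1.11, 1.35 and 1.06, SE 0.14 to 0.15, edgeR adjusted p 1.0e-07 to 4.0e-06), and 1.37 and 1.04 CPM without cytokine, 0.586 and 0.788 (mIL-21) against 1.496 and 0.645 (21h10) at 10 nM, and 0.816 and 0.645 against 1.16 and 1.004 at 100 nM in experiment 2, where it was not called (-0.80, -0.18, -0.72 and -0.16, SE 0.44 to 0.45, edgeR adjusted p 0.16 to 0.79).

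H2-DMb2 had 1.61 and 1.44 CPM without cytokine, 3.38 and 2.59 (mIL-21) against 2.76 and 2.33 (21h10) at 100 pM, and 2.56 and 2.74 against 1.34 and 1.28 at 1 nM in experiment 1. It rose in 3 groups but not with 21h10 at 1 nM, whose libraries lay below the unstimulated pair (0.97, 0.71, 0.79 and -0.23, SE 0.16 to 0.20, edgeR adjusted p 4.7e-05 to 0.29). For experiment 2 the values were 1.42 and 1.58 CPM without cytokine, 0.167 and 0.301 (mIL-21) against 0.321 and 0.580 (21h10) at 10 nM, and 0.0583 and 0.194 against 1.09 and 1.56 at 100 nM. As for H2-DMa, 21h10 at 100 nM stood apart from the other treated groups, close to the unstimulated pair, while these fell (-2.64, -1.72, -3.57 and -0.18, SE 0.47 to 0.62, edgeR adjusted p 2.1e-04 to 0.77). The beta chains are near-identical copies, so that the split of reads between them is uncertain.

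H2-Oa, the alpha chain of H2-DO, had 5.64 and 5.69 CPM without cytokine, 45.3 and 45.9 (mIL-21) against 25.3 and 22.2 (21h10) at 100 pM, and 24.8 and 25.5 against 15.9 and 13.8 at 1 nM in experiment 1. It rose most with mIL-21 at 100 pM and least with 21h10 at 1 nM (3.01, 2.06, 2.15 and 1.38, SE 0.084 to 0.090, edgeR adjusted p 2.4e-15 to 1.4e-10). In experiment 2 it had 26.8 and 22.1 CPM without cytokine, 7.61 and 10.03 (mIL-21) against 7.62 and 7.38 (21h10) at 10 nM, and 7.25 and 6.61 against 9.81 and 6.84 at 100 nM. It fell in each group (-1.47, -1.71, -1.82 and -1.55, SE 0.17 to 0.18, edgeR adjusted p 6.8e-07 to 5.0e-06). H2-Ob, the beta chain, followed the same order in experiment 1, with 1.08 and 0.745 CPM without cytokine, 16.5 in both (mIL-21) against 10.64 and 10.8 (21h10) at 100 pM, and 11.9 and 11.2 against 8.16 and 7.99 at 1 nM and log2 fold changes of 4.12, 3.49, 3.6 and 3.08 (SE 0.12 to 0.13, edgeR adjusted p 3.6e-15 to 2.7e-13). Experiment 2 gave it 7.15 and 6.22 CPM without cytokine, 4.29 and 4.796 (mIL-21) against 3.88 and 2.71 (21h10) at 10 nM, and 3.84 and 4.61 against 2.85 and 2.53 at 100 nM. It fell in all groups (-0.56, -1.02, -0.66 and -1.31, SE 0.21 to 0.22, edgeR adjusted p 1.6e-04 to 0.037). Both chains were higher in unstimulated cells of experiment 2 than in those of experiment 1, H2-Oa at 19.4 ± 3.34 against 4.57 ± 0.111 RPKM and H2-Ob at 2.08 ± 0.281 against 0.288 ± 0.0698 RPKM.

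**Figure D4:**
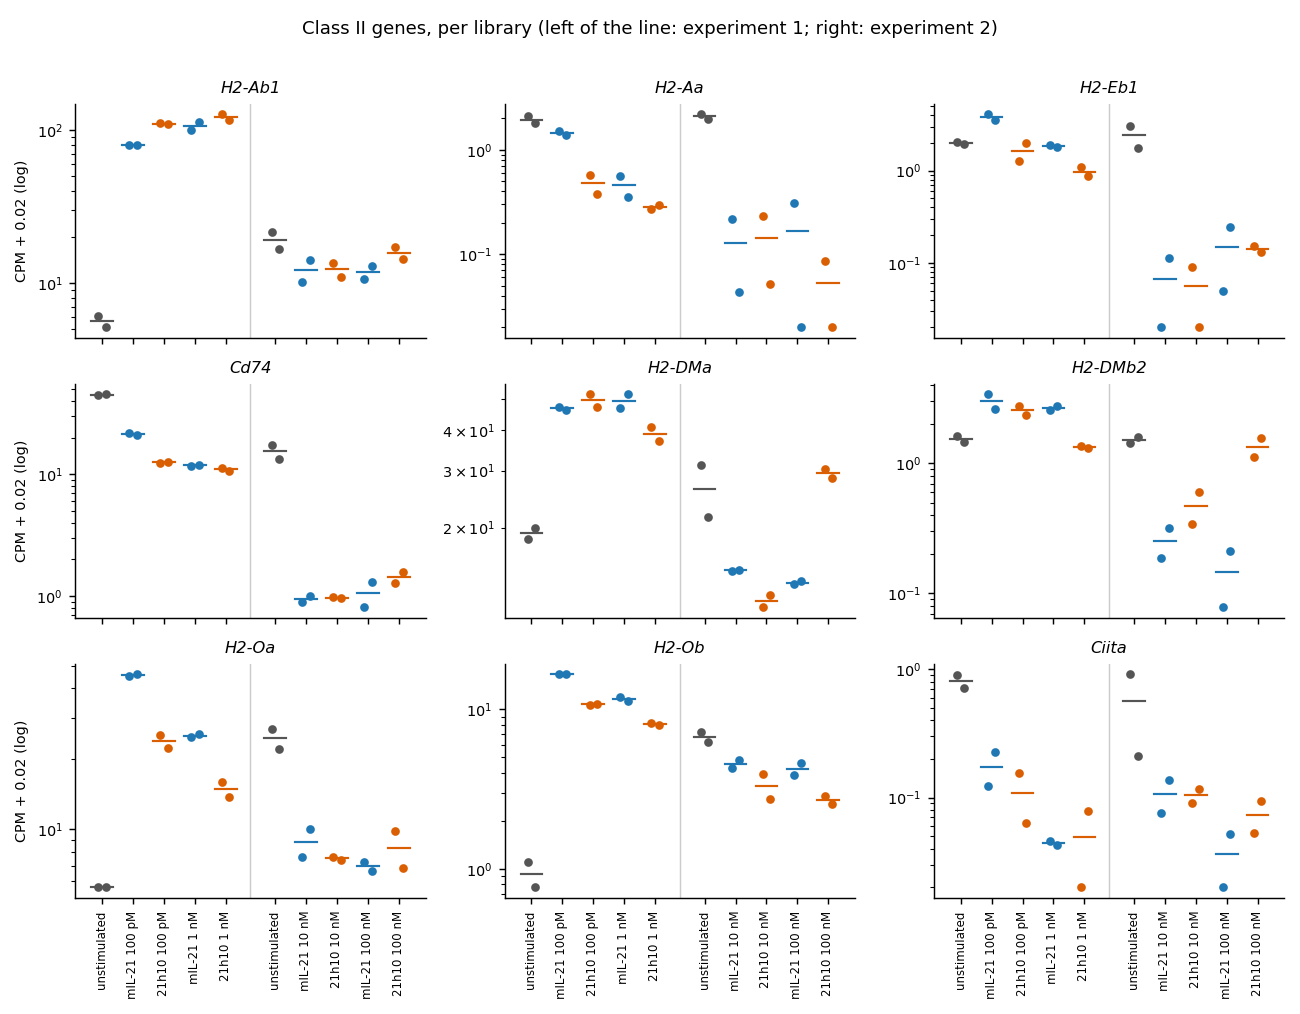
CPM plus a small constant, on a log axis, of class II genes in each of the 20 libraries (points, grey unstimulated, blue mIL-21, orange 21h10), by group and experiment, with bars at the mean of the duplicates. In experiment 1 H2-Ab1, H2-Oa and H2-Ob lie above the unstimulated pair in every treated library while Cd74 lies below it, and in experiment 2 Cd74 lies between 0.786 and 1.56 CPM in treated libraries against 13.4 and 17.6 CPM.

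Markers of the cells that usually carry class II were measured beside these genes. In bulk RNA, fewer cells of a type and less RNA per cell cannot be told apart. Of the B cell markers, Ms4a1 had 44 and 35 reads in unstimulated libraries of experiment 1 and 0 to 8 in treated ones, and in experiment 2 it had 39 and 36 against 0 to 3. The summed level of the 10 B cell markers was 11.9 to 12.1 CPM without and 13.7 to 17.6 CPM with cytokine in experiment 1, and 11.7 to 13.5 and 7.14 to 9.51 CPM in experiment 2. Cd79b made up most of the sum, and Ebf1 reached 8.95 CPM in treated cells of experiment 1. In each comparison with unstimulated cells 7 of the 10 were tested, of which 2 to 5 were called lower and 1 to 3 higher. Over all genes tested, 77.7% to 81.6% were called in experiment 1 and 46.2% to 50.8% in experiment 2. Ms4a1 moved with H2-Aa, H2-Eb1, Cd74 and Ciita in experiment 2 and against H2-Ab1 and H2-Oa in experiment 1, and its part in these results was not tested.

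Of 12 markers of dendritic cells and macrophages 11 were in the tables. Their sum was 8.76 to 10.19 CPM without and 34.5 to 51.7 CPM with cytokine in experiment 1, carried by Itgax (up to 33.7 CPM) and Cd68 (up to 25.4 CPM). Flt3 had 11 and 0 reads in the unstimulated libraries and 3 to 95 in the treated ones, and Zbtb46 stood at 1.22 to 1.25 CPM without and 0.666 to 3.89 CPM with cytokine. Of the 6 markers tested in experiment 1, 2 to 5 were called higher and 0 to 1 lower, where 77.7% to 81.6% of all genes tested were called. Clec9a had 0 to 1 reads, Csf1r 0 to 2 and Lyz2 0 to 6 in every library of experiment 1, the treated ones included, beside H2-Ab1 at 79.9 to 127 CPM. In experiment 2 the sum of the 11 markers was 15.27 to 16.65 CPM without and 17.86 to 32.62 CPM with cytokine. There H2-Ab1 was called lower in 3 of 4 groups and higher in none. The part of such cells in the rise of H2-Ab1 in experiment 1 was not tested.

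The class II pathway outside the members was followed by 5 genes that open or cut the invariant chain and proteins in endosomes (Ifi30, Ctss, Ctsl, Ctsb and Lgmn). The same shares of all genes, 77.7% to 81.6% and 46.2% to 50.8%, are the background for these counts. In experiment 1, 3 to 4 of them were called higher and 0 to 1 lower, with Ctsb at 0.89 to 2.04, Ctsl at 0.95 to 1.41 and Ctss at 0.77 to 0.84 on the log2 scale. Lgmn was called lower with mIL-21 at 100 pM (-1.35), higher with 21h10 at 1 nM (0.72) and not called in the other groups of experiment 1. In experiment 2, 2 to 4 were called higher and 0 to 1 lower, with Lgmn at 1.22 to 2.12. Of 15 factors that act on MHC promoters, 7 to 11 were called higher and 4 to 6 lower in experiment 1, among them Irf2 (0.92 to 1.10) and, as the falls largest in size, Nfyc (-1.40 to -0.91). In experiment 2, 3 to 4 were higher and 6 to 9 lower, with Rfx5, a subunit of the factor on the X box, at -1.33 to -1.10 and Nfkb1 at -0.84 to -0.68. Of 7 MHC-like molecules encoded outside the complex 6 were tested, of which 4 to 5 were called higher and 0 lower in experiment 1. Fcgrt, the neonatal Fc receptor, had 3.25 to 3.34 there and 1.64 to 2.09 in experiment 2.

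The other symbols with the prefix were H2-K2, H2-Ke2 and H2-Ke6. H2-K2 went from 18.5 and 19.3 CPM to 35.7 to 45.5 CPM in experiment 1, rising in each group (1.23, 1.02, 1.01 and 0.92, SE 0.057 to 0.059, edgeR adjusted p 2.2e-12 to 1.0e-10), and from 24.7 and 19.6 to 13.9 to 19.6 CPM in experiment 2, with 3 groups called lower. H2-Ke2, a prefoldin subunit, fell in experiment 1 from 66.9 and 67.9 to 23.2 to 28.2 CPM (-1.49, -1.30, -1.42 and -1.35, SE 0.066 to 0.068, edgeR adjusted p 1.5e-12 to 3.9e-12) and in 3 groups of experiment 2 from 34.2 and 29.6 to 21.2 to 29.1 CPM. H2-Ke6 rose in experiment 1 from 18.5 and 19.2 to 26.3 to 33.0 CPM and was not called in experiment 2, at 19.9 and 20.1 and 18.7 to 22.8 CPM.

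Genes that lie among the members on chromosome 17, between 33915899 and 37483552 in GRCm38, give the local background. Of 99 such genes tested in experiment 1, mIL-21 had 46 called higher and 30 lower at 100 pM, and 42 and 32 at 1 nM. The 21h10 groups had 41 and 34, then 36 and 40. Their medians were 0.24, 0.09, 0.03 and -0.10 on the log2 scale, below those of the members. In experiment 2, 16 to 20 of 97 were called higher and 22 to 33 lower. The share of these genes called in either direction was 74.7% to 76.8% in experiment 1 and 43.3% to 53.6% in experiment 2. Over all genes tested it was 77.7% to 81.6% and 46.2% to 50.8%.

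The design sets 21h10 against mIL-21 at equal dose. At 100 pM, 3 higher and 14 lower of the 46 members were called in 21h10 relative to mIL-21, where 38.6% of all genes tested passed (19.6% higher, 19% lower). The largest differences lay in class II: H2-Aa at -1.72 ± 0.27 (SE, edgeR adjusted p = 6.8e-05), H2-Eb1 at -1.20 ± 0.18 (SE, edgeR adjusted p = 4.5e-05) and H2-Oa at -0.95 ± 0.073 (SE, edgeR adjusted p = 2.3e-08). Cd74 and H2-Ob were also lower with 21h10. H2-T24 was lower at -0.82 ± 0.070 (SE, edgeR adjusted p = 7.9e-08) and Nlrc5 at -0.65 ± 0.044 (SE, edgeR adjusted p = 4.0e-09). The smaller differences in the same direction were those of Psmb9, H2-K1, H2-K2, H2-Ke6, Psme1, H2-T23 and H2-Q4, between -0.31 and -0.14. Higher with 21h10 were H2-Q10 at 0.67 ± 0.059 (SE, edgeR adjusted p = 1.2e-07), H2-Ab1 at 0.46 ± 0.065 (SE, edgeR adjusted p = 2.6e-05) and H2-Ke2 at 0.19 ± 0.070 (SE, edgeR adjusted p = 0.046). The call of H2-Ke2 was lost in 11 alternative fits, DESeq2 among them. Without the first mIL-21 100 pM library, 11 members were called in place of 17.

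At 1 nM, 4 higher and 9 lower were called, where 37.7% of all genes tested passed (19.6% higher, 18.1% lower). With DESeq2 the split was 11 higher and 8 lower. The lower ones included H2-DMb2 at -1.02 ± 0.19 (SE, edgeR adjusted p = 4.8e-04), H2-Eb1 at -0.97 ± 0.24 (SE, edgeR adjusted p = 0.0043), H2-Oa at -0.77 ± 0.082 (SE, edgeR adjusted p = 8.5e-07), H2-Ob at -0.51 ± 0.096 (SE, edgeR adjusted p = 4.1e-04) and H2-DMa at -0.34 ± 0.069 (SE, edgeR adjusted p = 8.0e-04). The call of H2-Eb1 was lost without the second 21h10 1 nM library. H2-T24, Tap2, Nlrc5 and Psmb8 were lower as well, and the call of Psmb8 was lost in 11 alternative fits, DESeq2 among them. Higher were H2-Q10 at 0.71 ± 0.058 (SE, edgeR adjusted p = 2.9e-08), Psme2 at 0.39 ± 0.044 (SE, edgeR adjusted p = 1.9e-06), B2m at 0.22 ± 0.048 (SE, edgeR adjusted p = 0.0013) and H2-Ab1 at 0.19 ± 0.065 (SE, edgeR adjusted p = 0.031). The call of H2-Ab1 was lost in 5 alternative fits, among them limma and the fit without TMM scaling.

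Dose was compared within each cytokine. For mIL-21, 2 higher and 13 lower were called at 1 nM relative to 100 pM, where 34.5% of all genes tested passed (17.9% higher, 16.6% lower). H2-Aa was lower at -1.73 ± 0.30 (SE, edgeR adjusted p = 2.2e-04), Cd74 at -0.85 ± 0.070 (SE, edgeR adjusted p = 4.8e-08) and Nlrc5 at -0.51 ± 0.044 (SE, edgeR adjusted p = 8.0e-08), while H2-Q10 and H2-Ab1 were higher. The count was 33 (2 higher, 31 lower) without TMM scaling, under which the median of all genes also shifted to -0.12. For 21h10 there were 3 higher and 9 lower at 1 nM relative to 100 pM, where 39.2% of all genes tested passed (20.1% higher, 19% lower), and with DESeq2 5 higher and 7 lower. Those lower were H2-Eb2, H2-DMb2, H2-Eb1, H2-Oa, Tap2, H2-Ob, H2-DMa, Cd74 and Psmb8, and those higher were H2-Q10, Psme2 and B2m. The call of Cd74 was lost in 10 alternative fits and that of H2-Eb2 in 5, DESeq2 among them for either gene.

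Between 21h10 at 100 pM and the higher mIL-21 dose (1 nM) there were 0 members called by edgeR, where 0.737% of all genes tested passed. At an unadjusted p under 0.05 there were 3 members, DESeq2 also called 0, and the lowest adjusted p was 0.26. The estimates for the members lay between -0.24 and 1.59 on the log2 scale, the widest being that of Ciita, with few reads. For H2-Oa the values were 25.3 and 22.2 CPM with 21h10 at 100 pM and 24.8 and 25.5 CPM with mIL-21 at 1 nM, and for H2-Q10 100.1 and 94.3 and 93.5 and 101 CPM.

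Whether the difference between cytokines itself depended on dose was tested by the interaction term. In experiment 1 the term was positive for 9 members and negative for 4, where 18.4% of all genes tested passed (8.34% higher, 10% lower). With DESeq2 the split was 11 and 2, and without TMM scaling 10 and 2. It was positive for Cd74 at 0.65 ± 0.10 (SE, edgeR adjusted p = 2.0e-04) and Nlrc5 at 0.41 ± 0.062 (SE, edgeR adjusted p = 1.6e-04), where the deficit with 21h10 was smaller at 1 nM. It was negative for H2-DMa at -0.42 ± 0.096 (SE, edgeR adjusted p = 0.0054). H2-DMa was lower with 21h10 at 1 nM, while at 100 pM it was not called between the cytokines. The count fell from 13 to 5 without the first 21h10 100 pM library, to 6 without the second mIL-21 100 pM library and to 8 without either of the other libraries of these groups.

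In experiment 2 fewer members were called between the cytokines. At 10 nM edgeR called 0 of 44 (0.00726% of all genes tested), with 3 at an unadjusted p under 0.05 and 0 by DESeq2, and estimates between -0.51 and 0.92. At 100 nM 2 members were called, both higher with 21h10, where 8.52% of all genes tested passed (4.01% higher, 4.52% lower). These were H2-DMa at 1.12 ± 0.15 (SE, edgeR adjusted p = 1.9e-04) and H2-DMb2 at 3.39 ± 0.63 (SE, edgeR adjusted p = 0.0032). Leaving out the first mIL-21 100 nM library kept 1 of them, and leaving out either unstimulated library gave 4 calls. Between 100 nM and 10 nM of mIL-21 edgeR called 0 members (0% of all genes), with 1 at an unadjusted p under 0.05 and 0 by DESeq2. For 21h10 the same step raised H2-DMa alone among the 44 members, at 1.31 ± 0.15 (SE, edgeR adjusted p = 6.7e-05), where 5.33% of all genes tested passed (1.88% higher), and without either unstimulated library 2 members were called. The interaction term was called for H2-DMa too, at 1.44 ± 0.21 (SE, edgeR adjusted p = 0.002), where 0.922% of all genes tested passed.

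The mean response over the 4 treated groups was then compared between the experiments, in 1 fit over the 20 libraries. The members' response was lower in experiment 2 for 39 of the 46 and higher for 5, where 64.7% of all genes tested passed (31.2% higher, 33.5% lower). The median difference was -1.27 on the log2 scale against -0.02 over all genes, and -0.22 over the 101 neighbours in the complex. It was lowest for H2-Eb1 at -4.95 ± 0.48 (SE, edgeR adjusted p = 1.1e-08), H2-Ab1 at -4.82 ± 0.17 (SE, edgeR adjusted p = 1.9e-15) and H2-Ob at -4.53 ± 0.19 (SE, edgeR adjusted p = 2.4e-14). Tap1 differed by -1.76 ± 0.089 (SE, edgeR adjusted p = 3.6e-13) and H2-K1 by -0.86 ± 0.097 (SE, edgeR adjusted p = 1.0e-07). The 5 with a higher response in experiment 2 were Erap1, H2-Ke2, Psmb10, Psme1 and Psme2, between 0.27 and 0.96. B2m and Ciita were not called.

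The baselines of the experiments differed as well, and the dose range changed with them. Without cytokine, H2-Ab1 stood at 3.98 ± 0.409 RPKM in experiment 1 and 13.4 ± 2.91 in experiment 2, Tap1 at 75.2 ± 1.41 and 112 ± 19.7, and Cd74 at 27.03 ± 0.798 and 9.11 ± 2.06 RPKM. The treated groups of experiment 1 had H2-Ab1 at 59.8 to 81.7 RPKM as group means, above the treated groups of experiment 2 at 7.03 to 8.93 RPKM. Levels are set side by side across experiments here without a test.

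**Figure D5:**
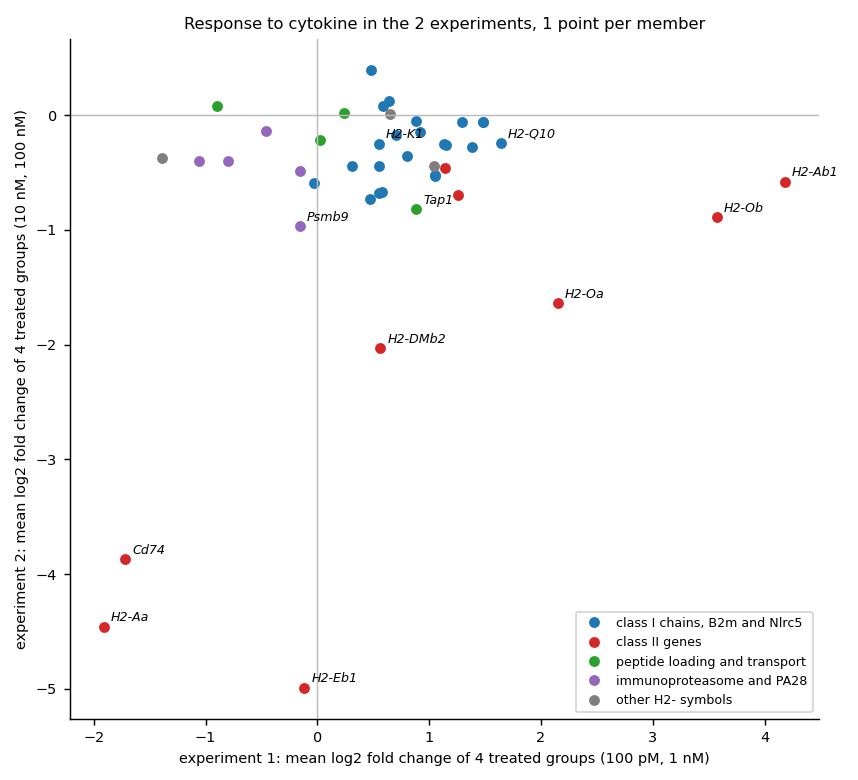
Mean response to cytokine (log2, mean of 4 treated groups minus unstimulated) in experiment 1 (horizontal axis) and experiment 2 (vertical axis) for the members tested in both experiments (points, coloured by role). H2-Ab1, H2-Ob and H2-Oa lie at the right with responses above 2 in experiment 1 and below 0 in experiment 2.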

How the data were processed

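Poly(A) RNA-seq was examined in 20 libraries. The authors aligned reads to mm10 (GRCm38), and their processing notes name Bowtie2 2.2.6, TopHat2 2.0.11, SAMtools 0.1.8, bedtools 2.25.0 and edgeR, whereas the counter and its strand setting are not given in the sources used here. The authors deposited whole-number read counts and RPKM values per transcript, one table of each unit per library. The RPKM values were scaled by the authors to transcript length and library size, and served for levels between genes and for ratios. In the labels mIL-21 is written WT and 21h10 is written h10.

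The longest transcript of each symbol was kept. TMM-scaled counts went into edgeR 4.0.16 (quasi-likelihood test, R 4.3.3) in 1 fit per experiment over its 10 libraries with group as the only term, and with 1 fit over 20 libraries for the difference between experiments. Genes needed 10 reads in as many libraries as a group holds and 15 in all, which left 13974, 13772 and 14530 genes. P-values were adjusted over all of these by the Benjamini-Hochberg method, with a threshold of 0.05. The biological coefficient of variation was 4.32% in experiment 1 and 8.80% in experiment 2. A permutation test of 2 against 2 libraries cannot go below p = 0.33 (two-sided), so no single-gene permutation test was made.

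Depth was 27074351 to 94079383 reads on genes per library. Fold intervals of genes with 3 or fewer reads are 95% exact binomial and cover counting error only, since reads carried no molecular identifiers. Duplicates differed by more than sampling noise in every group (chi-square per degree of freedom 2.66 to 35.8), so each counted as 1 library. The scripts were tested on simulated data. Promoters came from RefSeq (GRCm38.p6), positions from GENCODE, and near-identical copies were sought with BLAST 2.17.0.

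Members and lists were chosen with earlier results of these data known. All members that passed the filter in either experiment are named, and from each pathway list up to 4 called genes with the largest changes. Some genes of the marker and pathway lists are not reported here. The alternatives were DESeq2 1.42.0, limma 3.58.1 on log2(RPKM + 1) for genes at 1 RPKM or more in 2 libraries, no filter on low counts, separate fits of each compared pair, a block for the replicate number, scaling to mapped reads without TMM, the most-read transcript of a symbol, near-identical copies joined, and each library left out.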

Additional observations from a re-analysis of the deposited data

Results flagged for a closer look

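A difference between cytokines that itself changed with dose singled out 13 members in experiment 1, by the interaction term (21h10 minus mIL-21, 1 nM minus 100 pM, log2). Among class I genes and their transactivator the term was positive, for B2m (0.24), H2-K1 (0.24), H2-Q4 (0.22), H2-T23 (0.25), H2-T24 (0.52) and Nlrc5 (0.41), and it was positive for the PA28 chains Psme1 (0.22) and Psme2 (0.35) and for Cd74 (0.65). It was negative for H2-Ab1 (-0.28), H2-DMa (-0.42), H2-DMb2 (-0.76) and Tap2 (-0.31). All had an edgeR adjusted p under 0.05, and the count of 13 ranged from 5 to 13 when 1 library was left out. The calls of H2-Ab1 and H2-DMb2 were each lost in 10 alternatives, DESeq2 among them, and that of H2-K1 in 9, the replicate block among them. In experiment 2 the same term (100 nM minus 10 nM) was called for H2-DMa (1.44). H2-DMa thus had terms of opposite sign in the experiments, and the difference between these terms was not tested.

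A mean response to cytokine that differed between the experiments (experiment 2 minus experiment 1, log2, edgeR adjusted p under 0.05) singled out 44 members. Class II genes had H2-Eb1 (-4.95), H2-Ab1 (-4.82), H2-Ob (-4.53), H2-Oa (-3.85), H2-Eb2 (-3.48), H2-DMb2 (-2.65), H2-Aa (-2.64), Cd74 (-2.20), H2-DMa (-2.02) and H2-DMb1 (-1.67). Classical class I heavy chains had H2-K1 (-0.86), H2-L (-0.58) and H2-D1 (-0.57). The Q region had H2-Q10 (-1.94), H2-Q5 (-1.72), H2-Q6 (-1.64), H2-Q8 (-1.63), H2-Q7 (-1.60), H2-Q9 (-1.60), H2-Q2 (-1.41), H2-Q1 (-1.22) and H2-Q4 (-0.93). The T and M regions had H2-T3 (-1.47), H2-T9 (-1.31), H2-T22 (-1.28), H2-T10 (-1.26), H2-Bl (-1.14), H2-T23 (-1.05), H2-T24 (-0.81), H2-M5 (-1.44) and H2-M3 (-1.0). Among loading genes and the transactivator of class I the values were Tap1 (-1.76), Nlrc5 (-0.62), Tap2 (-0.30), Tapbp (-0.28) and Erap1 (0.92). In the immunoproteasome and PA28 they were Psmb9 (-0.87), Psmb8 (-0.39), Psmb10 (0.34), Psme1 (0.27) and Psme2 (0.60). The other symbols with the prefix gave H2-K2 (-1.55), H2-Ke6 (-0.69) and H2-Ke2 (0.96). Several of these values come from shared reads (H2-Q7 with H2-Q9, H2-Q6 with H2-Q8, H2-T9 with H2-T22, H2-L with H2-D1). Dose range, experiment and baseline changed together and cannot be told apart.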

How the results depend on the processing

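Counts of members called against unstimulated cells in experiment 1 and for the difference of mean response between experiments stayed within 1.5 times under all alternatives. With limma on log2(RPKM + 1), 26 members were called between cytokines at 100 pM (17 by edgeR), 32 for the mIL-21 dose step in experiment 1 (15), 33 for 21h10 at 100 nM against unstimulated cells (21) and 2 for the 21h10 dose step in experiment 2 (1). Scaling to mapped reads without TMM gave 33 for the mIL-21 dose step and 34 for 21h10 at 100 nM. With no filter the cytokines differed in 4 members at 100 nM (2) and the 21h10 dose step had 2, and with the compared groups fitted alone both counts were 4. Leaving out 1 library gave 11 to 18 members between cytokines at 100 pM, 5 to 13 for the interaction in experiment 1, 16 to 33 for mIL-21 at 100 nM against unstimulated cells, 1 to 4 between cytokines at 100 nM and 1 to 2 for the 21h10 dose step in experiment 2. In experiment 2, Erap1 with 21h10 at 10 nM was not called by edgeR (0.03) but was called lower with limma (-0.23) and without TMM (-0.24). Tapbp (0.00 with 21h10 at either dose) was called lower at 100 nM with limma (-0.29) and without TMM (-0.30), and at 10 nM without TMM (-0.27). The shift of the median of all genes without TMM, -0.32 to -0.19, moved the same way. The cause of the other changes was not tested. Across all members and comparisons, 15793 results kept their direction and side of the threshold, 260 were no longer called, 263 became called and 5 were reversed.

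Groups share replicate numbers. Deviations of same-numbered libraries correlated between groups at -0.0617 to 0.0292 in experiment 1 and at -0.167 to 0.227 in experiment 2. In experiment 2 the correlation was over 0.1 for 3 of 10 pairs of groups. The main fits did not pair libraries by number, and a block for the number was fitted as an alternative. With the replicate block, 43, 42, 42 and 43 members were called against unstimulated cells in experiment 1 and 23, 28, 29 and 22 in experiment 2, in the order mIL-21 and 21h10 at the lower and then at the higher dose. The block gave 16 between cytokines at 100 pM and 11 for the interaction in experiment 1. Depth limits Ciita, H2-Aa, H2-Eb1 and H2-Eb2, which had few or no reads in treated libraries.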
